A study of Mus musculus with 102 samples.

Results

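The 53501 peaks of dimethylated histone H3 lysine 4 (H3K4me2) in R1 mouse embryonic stem (ES) cells were compared between wild-type cells and cells with catalytically dead MLL3 and MLL4, called the dead line. Every peak of the deposited H3K4me2 table was used, out of 170107 peaks in the tables of the 3 H3K4 methylation marks. The table sorts the peaks into 35286 distal peaks, which lie away from promoters, and 18215 proximal peaks. They had a median width of 1443 bp, from 306 to 61502 bp.

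The study asked by chromatin immunoprecipitation with sequencing (ChIP-seq) which proteins share sites with H3K4me1 at enhancers and depend on it. Both lines compared here are R1 ES cells of strain 129SV, one with a wild-type genotype and the other MLL3/4 double catalytic dead, with inactive catalytic domains in both methyltransferases. Both were grown on mouse embryonic fibroblast feeder cells in serum-free medium with leukemia inhibitory factor, and the labels do not say whether the dead line is 1 clone. The labels give 4 H3K4me2 libraries, 2 per line, made with 1 antibody. The deposited table gives 1 fold enrichment per line and peak, and which libraries entered it is not stated. The depth is therefore unknown and no test between the lines was possible. Differences are given by their size, with the range of medians over the 19 autosomes as a measure of spread along the genome, which says nothing of the error between cultures. Neither the genotype nor the identity of the cells could be checked from these tables, and carry-over of feeder chromatin was not tested. Regions, enhancers and factors mapped in another ES line of the series, 129/Ola (45 libraries in the labels), are used below to sort the peaks.

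Lysine 4 of histone H3 carries 1, 2 or 3 methyl groups, written H3K4me1, H3K4me2 and H3K4me3. H3K4me3 marks active and CpG-rich promoters, where it is placed mainly by the SET1 and MLL1/2 complexes. H3K4me1 marks enhancers, where MLL3 and MLL4 are its main methyltransferases. H3K4me2 is found at both, on the flanks of promoters and over enhancers, so it is a mark on which the enzymes of both kinds of element can act.

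Of all H3K4me2 peaks, 12302 (23.0%) were lower in the dead line by at least 2-fold, and 1023 (1.91%) were higher by as much. The same rule of size called 28.4% of H3K4me1 peaks lower and 15.2% higher, and 4.48% of H3K4me3 peaks lower and 3.15% higher. Lower H3K4me2 was more frequent away from promoters: 31.8% of distal and 5.91% of proximal peaks were lower. Of the lower peaks 91.2% were distal and of the higher peaks 70.8%, while 35286 of all 53501 peaks were distal. The median distal fold enrichment was 4.11 in the wild-type and 3.13 in the dead line, and the median proximal one 8.47 and 9.87. Of the distal peaks 4947 had a fold enrichment below 1 in the dead line, and 19 in wild-type cells. The log2 ratio, dead line over wild type, had a median of -0.46 at distal peaks, from -0.54 to -0.37 on the autosomes, and 0.18 at proximal peaks, from 0.12 to 0.26.

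**Figure D1:**
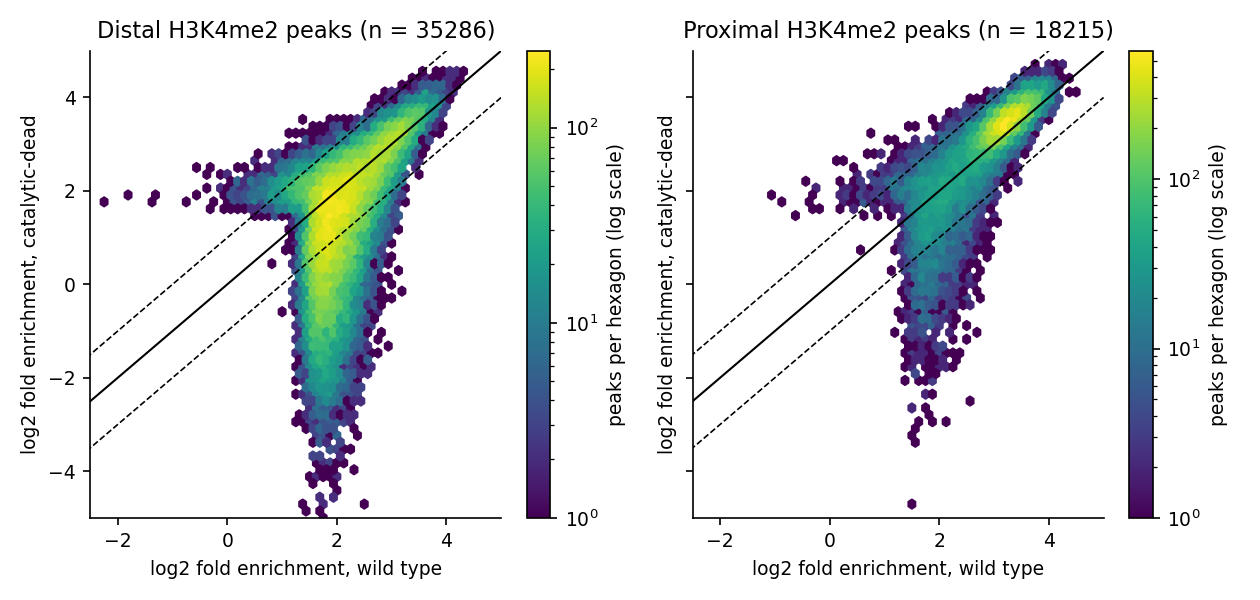
Hexagon plot of log2 fold enrichment in wild-type cells (horizontal) against the dead line (vertical) at 35286 distal and 18215 proximal H3K4me2 peaks, with the colour giving the number of peaks on a log scale, a solid line of equal values and dashed lines at 2-fold; 8 distal peaks fall outside the axes. Distal peaks of moderate wild-type level spread far downwards in the dead line (medians 4.11 and 3.13), while proximal peaks gather along the line of equal values (8.47 and 9.87).

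The list of peaks itself bounds what could be seen. In 95.3% of the peaks the higher of the 2 values was above 3, so a peak that was weak in one line had to be stronger in the other. Peaks with a wild-type value of 3 or below made up 8.87% of the table and 74.3% of the peaks that were at least 2-fold higher. How the peaks were called, and in which line, is not stated in any source used here. The scale between the lines is not fixed by the table either. Quantile normalization, which forces the same distribution of values on both lines, left 2898 peaks lower and 3331 higher, so that lower peaks made up 46.5% of the calls in place of 92.3%. Median centring shifts every log2 ratio by 0.13 upwards, since the median over the table was -0.1271, and left 87.8%.

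The peaks were then divided by overlap of at least 1 bp with the R1 peaks of the other marks. Distal H3K4me2 that shared its site with H3K4me1 and not with H3K4me3, the arrangement typical of enhancers, was the class with the lowest level in the dead line. These 15076 peaks had a median fold enrichment of 3.50 in the wild-type line and 1.67 in the dead line, a median log2 ratio of -1.11 (autosomes -1.20 to -0.94). Of them 53.4% were at least 2-fold lower and 1.38% higher. They were 15076 of the 53501 peaks and supplied 65.5% of all lower H3K4me2 peaks. In catalytic-dead cells 4198 of them were below a fold enrichment of 1, in wild-type cells 7. A peak on chromosome 4, 124813464 to 124814452 (mm9), had a log2 ratio near the class median. Its fold enrichments, 4.76 in the wild-type line and 2.21 in the dead line, were above the class medians. Its H3K4me1 was 3.30 and 1.85.

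The 14647 distal peaks that overlapped both an H3K4me1 and an H3K4me3 peak stayed closer to wild type. Their median fold enrichment was 5.77 in the wild-type line and 5.18 in the dead line, a median log2 ratio of -0.14 (autosomes -0.21 to -0.05), and 14.2% were lower and 1.45% higher. An example on chromosome 8, 13913725 to 13915380, had 4.83 and 4.37. The 2234 distal peaks with H3K4me3 and without H3K4me1 were level, with 4.34 and 4.41 and a median log2 ratio of 0.015 (autosomes -0.13 to 0.13). Of these 8.68% were lower and 3.85% higher, which turned to 2.60% and 12.7% after quantile normalization, with a median of 0.21. At 3329 distal peaks without either neighbour the medians were 3.42 and 2.94, with 27.2% lower and 6.55% higher. Their median log2 ratio was -0.31 as deposited (autosomes -0.50 to -0.14) and 0.30 after quantile normalization.

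Among proximal peaks, too, those with H3K4me1 alone had the lowest median as deposited. The 15288 proximal peaks with both other marks had a median of 9.01 in wild-type and 10.6 in the dead line, a median log2 ratio of 0.21 (autosomes 0.17 to 0.27), with 1.87% lower and 153 peaks higher. The 1843 proximal peaks with H3K4me1 alone had 3.46 and 2.22, and 37.7% of them were lower. Their median log2 ratio was -0.68 (autosomes -1.45 to -0.41). After quantile normalization it was 0.085, beside 0.020 at proximal peaks with both marks, so the contrast between these classes turned from -0.89 to 0.066. The 615 proximal peaks with H3K4me3 and without H3K4me1 had a median log2 ratio of 0.21 with 3.90% lower, and the 469 with neither mark -0.079 with 15.4% lower. Among peaks with H3K4me1 alone, the distal median lay 0.43 below the proximal one, and among peaks with both marks 0.36 below it. These gaps were 0.21 and 0.15 after quantile normalization.

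The contrast between H3K4me1-alone and double-marked distal peaks depended on the scale. As deposited the medians differed by -0.96. After quantile normalization they were -0.12 and -0.13, and the shares of lower peaks were 10.2% and 5.76%, beside 7.22% and 3.52% of higher peaks. The wild-type medians of the classes, 3.50 and 5.77, lie in different parts of the distribution that this step reshapes. The part of the contrast that belongs to the scale cannot be told apart from the rest with these tables.

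**Figure D2:**
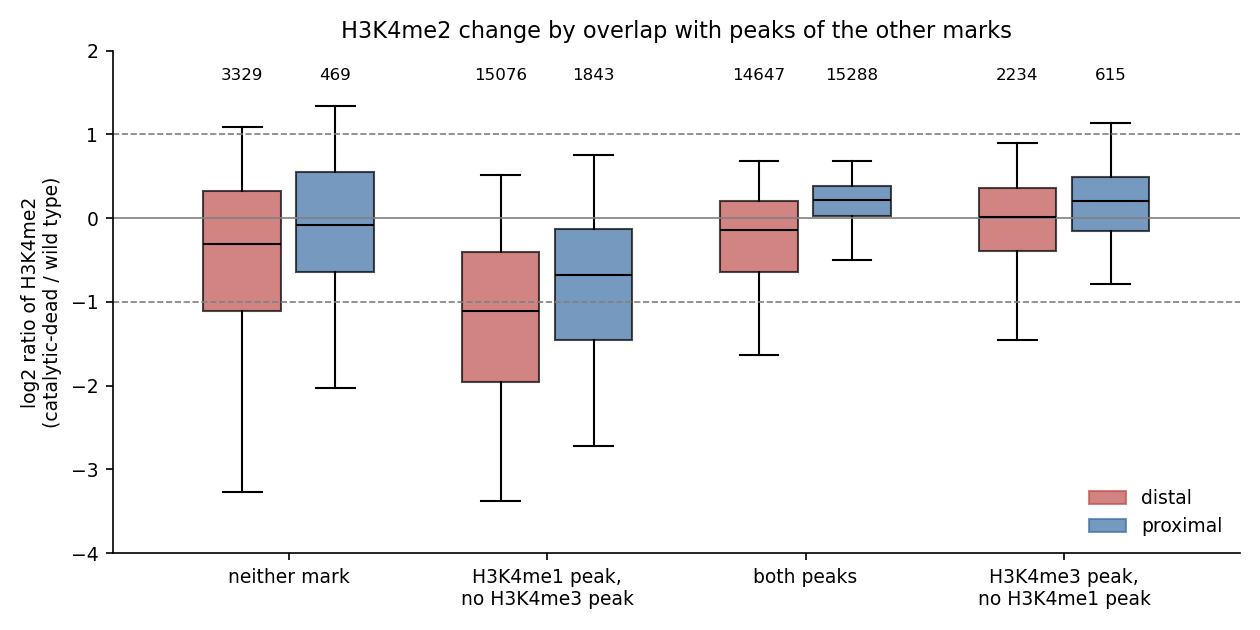
Box plot of the log2 ratio of H3K4me2 fold enrichment (dead line over wild type, vertical) for distal and proximal peaks in 4 classes of overlap with R1 peaks of the other marks; boxes are quartiles with the median, whiskers the 5th and 95th percentiles, numbers above are peaks, and dashed lines mark 2-fold. As deposited, the box of distal peaks with H3K4me1 alone is centred at -1.11, below those of all other classes; after quantile normalization its median is -0.12 beside -0.13 at distal peaks with both marks, and the medians of the classes without either mark and of proximal peaks with H3K4me1 alone are above 0.

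How much of an H3K4me2 peak lay under H3K4me3 graded the difference further. Among distal peaks with 25 to 50% of their length under H3K4me3, 40.8% were at least 2-fold lower, with a median of 4.64 in wild-type and 2.62 in the dead line (1607 peaks). At 50 to 75% the share was 18.2%, with medians of 5.20 and 4.21 (5562 peaks). At 75 to 100% it was 5.48%, with medians of 6.29 and 6.23 (9585 peaks). The distal peaks with no H3K4me3 at all had a share of 48.7%. A thin overlap thus came with values like those of no overlap: under 25% coverage 56.7% of 127 distal peaks were lower. Proximal peaks followed the same course, from 33.2% without H3K4me3 to 25.9%, 5.87% and 0.749% in the 3 upper classes of coverage. Under quantile normalization the distal medians of the upper class and of the class at 25 to 50% still differed, by 0.39, and the upper class and the class without H3K4me3 by 0.052.

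Distal peaks with H3K4me1 alone had lower ratios the farther they lay from H3K4me3, beyond 20 kb. Up to 20 kb from the nearest H3K4me3 peak, the median log2 ratio stayed between -0.97 and -1.12. At 20 to 50 kb it was -1.17, at 50 to 100 kb -1.37 and beyond 100 kb -2.31. The 730 peaks beyond 100 kb had a median of 3.58 in wild-type and 0.773 in the dead line. Of these most remote peaks 71.2% were at least 2-fold lower, and 417 were below a fold enrichment of 1. Their median was below 0 on all 17 autosomes with at least 20 such peaks, from -2.92 to -1.51. Their wild-type level was much like that of the nearer peaks, whose medians ran from 3.42 to 3.53. Against peaks within 10 kb, the remote median was 1.30 lower as deposited and 0.51 lower after quantile normalization.

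The 392 distal peaks beyond 100 kb that had no H3K4me1 peak either were another matter. Their medians were 3.40 in wild-type and 3.46 in the dead line, a median log2 ratio of 0.0025 with quartiles of -1.71 and 0.64. Among peaks with neither mark the medians ran the other way, from -0.96 within 1 kb of an H3K4me3 peak through -0.43 at 5 to 10 kb to -0.11 at 20 to 50 kb. Low values were still frequent among the remote peaks without H3K4me1: 120 of the 392 (30.6%) were at least 2-fold lower and 92 were below a fold enrichment of 1 in the dead line, while 13.3% were at least 2-fold higher. The share of lower peaks was 21.1% at 20 to 50 kb. After quantile normalization 16.3% of the remote peaks were lower, against 5.43% of those within 10 kb.

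**Figure D3:**
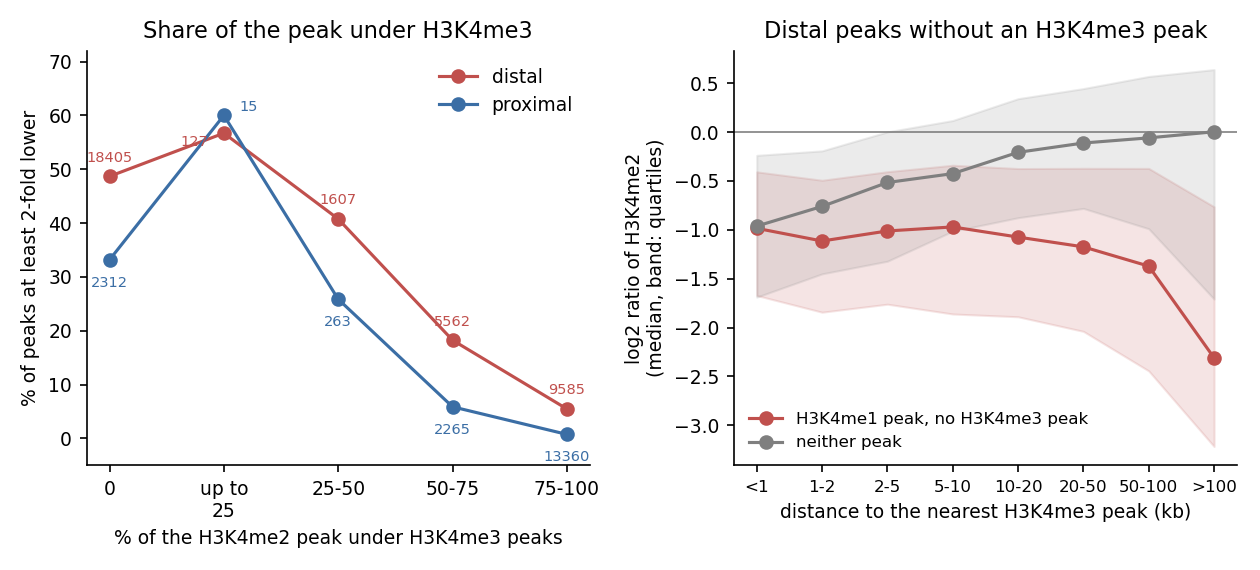
Left, percentage of H3K4me2 peaks at least 2-fold lower in the dead line by the percentage of the peak under H3K4me3, with the number of peaks beside each point; right, median log2 ratio with its quartile band by distance in kb to the nearest H3K4me3 peak for distal peaks with H3K4me1 alone or with neither mark. Lower peaks become rare once H3K4me3 covers most of the peak (5.48% distal, 0.749% proximal), and the curves for remote peaks part, at -2.31 with H3K4me1 and 0.0025 without it.

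Distal peaks with H3K4me1 alone also differed by the wild-type level of H3K4me1 at the same site. The peaks were ranked by the wild-type H3K4me1 fold enrichment of the overlapping peak and split into 5 equal groups. In the lowest group median H3K4me2 was 3.21 in wild-type and 3.18 in the dead line, and 18.4% of the peaks were lower. In the second it was 3.44 and 1.75, with 49.5% lower. In the highest it was 3.73 and 1.26, with 74.6% lower and no peak of 3015 higher. Wild-type H3K4me2 was nearly flat over the groups, while the level in the dead line came down with each. The median log2 ratios were -0.08, -0.98, -1.24, -1.43 and -1.56. H3K4me1 at the same sites had median log2 ratios of 0.41, -0.50, -0.74, -0.91 and -1.07. The wild-type H3K4me1 value that sets the groups is also the divisor of these H3K4me1 ratios, so they fall over the groups even for unrelated values. In the lowest group H3K4me1 itself was higher in the dead line, which this grouping favours. Since the source does not say in which line peaks were called, such peaks may be in the H3K4me1 list through that line. The part of the grouping and of the peak list in the grading was not tested. H3K4me1 and H3K4me2 come from separate antibodies, but both may have been set against the same 2 input libraries of their line, so the wild-type values may share their background. The gap between the outer groups was 1.48 as deposited and 1.01 after quantile normalization, where the lowest group had a median of 0.57 and the highest -0.44. Peaks that spanned 2 or more H3K4me1 peaks also had lower values in the dead line. Their median was 3.72 in wild-type and 1.05 in the dead line (685 peaks), against 3.50 and 1.70 with a single H3K4me1 peak.

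Width alone said little about distal H3K4me2, since widths and marks go together. In 5 equal groups of width, the share of lower peaks was 31.4%, 32.9%, 33.3%, 34.1% and 27.3% from narrow to wide. Within the distal classes of overlap the wider peaks were more often lower. Among distal peaks with H3K4me1 alone the share went from 46.4% in the narrowest group to 62.8% in the widest, and among those with both marks from 3.91% to 20.3%. The widest group held 5834 of the double-marked peaks and 1123 with H3K4me1 alone, and the narrowest 409 and 3653. The sign of the overall contrast between the outer groups, 4.12 percentage points, turned to -5.17 after quantile normalization, while both contrasts within classes kept their direction. Distal peaks of 10 kb or more (297) were close to level, with medians of 8.11 in wild-type and 7.72 in the dead line and 3.70% lower. Among proximal peaks the share of lower peaks went from 16.0% in the narrowest to 1.43% in the widest group, but the classes differ in width there too. The narrowest group held 1355 peaks with H3K4me1 alone and the widest 14. With H3K4me1 alone the shares from narrow to wide were 34.1%, 46.8%, 55.8%, 48.0% and 21.4%, the last 3 on 86, 25 and 14 peaks. With both marks the share went from 2.73% to 1.35%. The median log2 ratio of the widest proximal group lay 0.20 above that of the narrowest, which turned to -0.30 after quantile normalization.

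**Figure D4:**
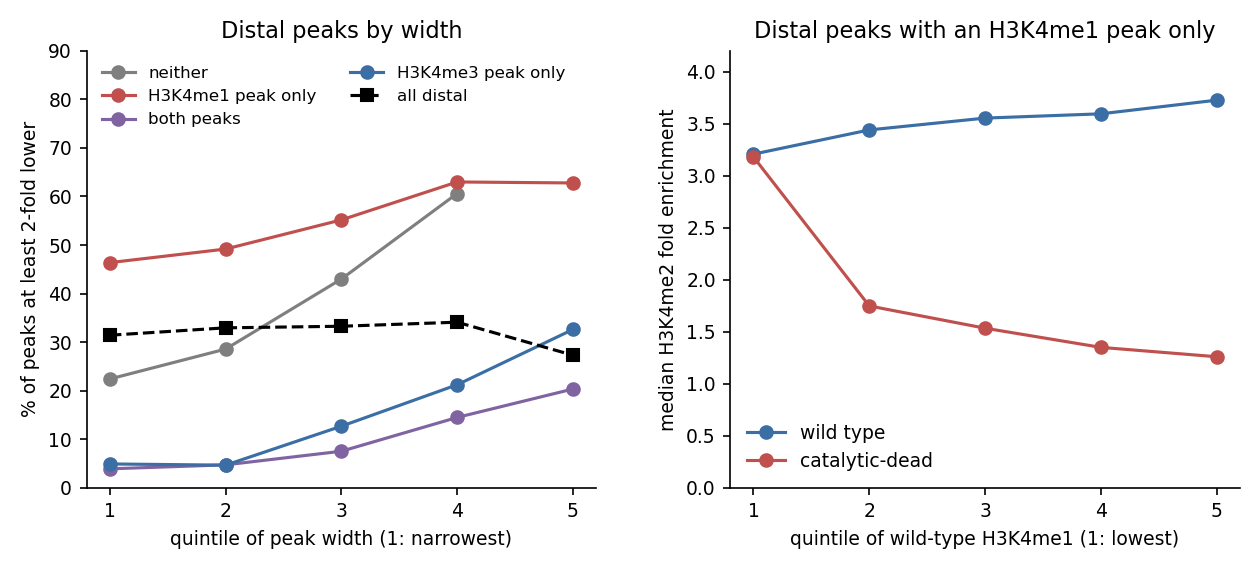
Left, percentage of distal H3K4me2 peaks at least 2-fold lower in the dead line by quintile of width, by class of overlap (points with at least 20 peaks) and for all distal peaks; right, median H3K4me2 fold enrichment in both lines by quintile of wild-type H3K4me1 at distal peaks with H3K4me1 alone. As deposited, wider peaks are more often lower within classes (46.4% to 62.8% with H3K4me1 alone) but not over all distal peaks, where the difference between the outer groups turns under quantile normalization, and the lines part from 3.21 and 3.18 in the lowest quintile, where H3K4me1 was itself higher in the dead line, to 3.73 and 1.26 in the highest.

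Among distal peaks with H3K4me1 alone, a stronger wild-type H3K4me2 signal came with a lower ratio. The median log2 ratio was -0.65 at a wild-type value of 3 or below, -1.13 at 3 to 4, -1.30 at 4 to 5 and -1.66 at 5 to 6 (439 peaks). The dead-line medians of these groups were 1.81, 1.60, 1.77 and 1.69, close to each other. The range of wild-type values was narrow, with 8544 of the 15076 peaks at 3 to 4. Over the 15076 peaks, Spearman's rho of wild-type with dead-line fold enrichment was 0.0016. It was 0.62 at distal and 0.81 at proximal peaks with both marks. At proximal peaks with H3K4me1 alone rho was -0.021, and with neither mark -0.23 at distal and -0.25 at proximal peaks. A narrow range of values can bring rho near 0. A list in which peaks weak in one line are stronger in the other can lower rho. The part of each was not tested. The wild-type value enters the ratio, so the ratio falls with it even for unrelated values, and these figures describe the peaks without a test. Strong double-marked peaks differed from this: above a wild-type value of 8, distal peaks had medians of 9.33 and 9.82 with 1.94% lower (2839 peaks), and proximal peaks 10.02 and 11.8 with 0.098% lower (10171 peaks).

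The other methylation states at the same sites were lower or higher in a graded way. Where distal H3K4me2 overlapped H3K4me1 alone, the H3K4me1 median was 3.26 in wild-type and 2.15 in the dead line, a median log2 ratio of -0.65 beside -1.11 for H3K4me2. H3K4me2 was the less negative of the pair at 16.2% of these sites. Between 2-fold and 4-fold lower H3K4me1, median H3K4me2 was at a log2 ratio of -2.05 (4050 peaks), and at 4-fold or more -3.38 (1125 peaks). Where H3K4me1 was slightly higher, with a log2 ratio of 0 to 0.5, H3K4me2 was at -0.20 (1877 peaks). Across the class, rho of the log2 ratios of the marks was 0.86. Fold enrichments of different antibodies need not be on 1 scale, and a shared input would by itself give ratios that correlate; its part was not tested.

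At proximal sites with all 3 marks H3K4me2 again had a lower ratio than H3K4me1, but both were above 0. Median H3K4me1 was 2.67 in wild-type and 4.76 in the dead line, a log2 ratio of 0.91. H3K4me2 stood at 0.21 and H3K4me3, with medians of 13.5 and 13.4, at -0.0099. The ratio of H3K4me2 lay between a higher H3K4me1 and a lower H3K4me3 ratio at 80.1% of the 15288 sites. At distal sites with all 3 marks, H3K4me1 was at 0.23, H3K4me2 at -0.14 and H3K4me3 at -0.0095. There H3K4me2 lay between a higher H3K4me1 and a lower H3K4me3 ratio at 39.0% of sites, and between them in the opposite order at 9.20%.

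The 129/Ola ES line, in which the study mapped enhancers and bound factors, allowed the peaks to be sorted by data from other libraries. Of the H3K4me2 peaks, 76.0% overlapped a region of that map. Distal peaks on its active enhancers, which carry the acetylation mark H3K27ac, had medians of 4.15 in wild-type and 2.02 in the dead line, with 51.4% lower (5858 peaks). On poised enhancers, which carry H3K4me1 with little H3K27ac, they had 3.90 and 2.54, with 36.6% lower (5146 peaks). Without an R1 H3K4me3 peak, the median log2 ratios were -1.38 on active enhancers (autosomes -1.63 to -1.24) and -0.99 on poised enhancers (-1.32 to -0.78). This gap of 0.39 was 0.17 after quantile normalization. The 2758 such peaks on H3K4me1 regions outside both lists had a median of -1.39, much like that on active enhancers.

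Acetylation in 129/Ola cells graded the H3K4me2 ratio at distal peaks on H3K4me1 regions without an R1 H3K4me3 peak (9422 peaks). Where H3K27ac was listed with a log2 enrichment of 1 or below, H3K4me2 was 3.49 in wild-type and 1.83 in the dead line, and 47.1% of 1349 peaks were lower. Above a log2 enrichment of 2 it was 3.86 and 1.12, and 83.8% of 438 peaks were lower. The groups between had shares of 62.5% and 73.1%. The difference of 0.88 in median log2 ratio between the outer groups was 0.57 after quantile normalization, with 26.7% and 5.12% of the peaks lower. Peaks without listed H3K27ac had a lower median log2 ratio than the weakly acetylated group, -1.20 against -0.93, and 56.8% of 4018 were lower. So the grading held within acetylated sites and did not extend to sites where the mark was not listed.

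Sites with listed SMC3 had more H3K4me2 in the dead line than other sites of like wild-type level. SMC3 is a subunit of cohesin, the ring complex that shapes chromatin loops. At the same 9422 peaks, those on regions with listed SMC3 had a median of 3.52 in wild-type and 1.81 in the dead line, with 49.5% lower (2207 peaks). Those without had 3.53 and 1.41, with 63.5% lower (7215 peaks). The difference in median log2 ratio, 0.38, was above 0 on all 19 chromosomes with at least 20 peaks in each group, from 0.18 to 0.59. Above an SMC3 log2 enrichment of 1.5 the difference from sites without SMC3 was 0.99, on 55 peaks. Lower peaks made up 53.6% at a log2 enrichment up to 0.8, 51.6% at 0.8 to 1 and 11 of the 55 peaks above 1.5. H3K4me1 at these sites had a higher ratio too, with medians of -0.60 with and -0.84 without SMC3. After quantile normalization the difference for listed SMC3 was 0.17. On chromosomes 1 and X alone, whose values need no reordering, it was 0.30. Those chromosomes held 2 peaks with SMC3 above 1.5, and the difference for these was -0.12.

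Most of the other factors went the same way by less. Of the 17 factors, 15 had a higher median H3K4me2 log2 ratio where they were listed, by a median over factors of 0.11. SMC3 had the largest difference over all these peaks, but not when they were divided by H3K27ac. Where H3K27ac was listed SSRP1 had 0.34 and SMC3 0.31, and where it was not SUR2 had 0.58 and SMC3 0.53. Over all the peaks, after SMC3 came PHF5A, a splicing factor subunit (0.32), BAZ1A, a subunit of ISWI remodelling complexes (0.30), SSRP1, which belongs to the histone chaperone FACT (0.29), PHRF1 (0.26) and SUR2, a Mediator subunit (0.21). The differences for SSRP1 and PHRF1 were above 0 on all 19 chromosomes compared. The labels give 1 library for SSRP1 and more for each other factor. BAF155 and BRG1 are subunits of the SWI/SNF (BAF) remodelling complex. BAF155 had the lowest difference, -0.07 and above 0 on 6 of 19 chromosomes, and BRG1 had 0.027, above 0 on 10 of 19. WSTF, a further ISWI partner, had -0.05. The Mediator subunits MED1 and MED12 had 0.036 and 0.025. Factors share sites, so these values are not independent: regions with listed SMC3 held a mean of 5.16 of the 17 factors and the others 2.20. Peaks with no listed factor had a median log2 ratio of -1.41 and those with 9 or more -1.03. Where 1 factor alone was listed, SMC3 had -0.95 (282 peaks) and SSRP1 -0.96 (90 peaks), while BRG1 had -1.84 (41 peaks) and BAF155 -1.87 (42 peaks).

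**Figure D5:**
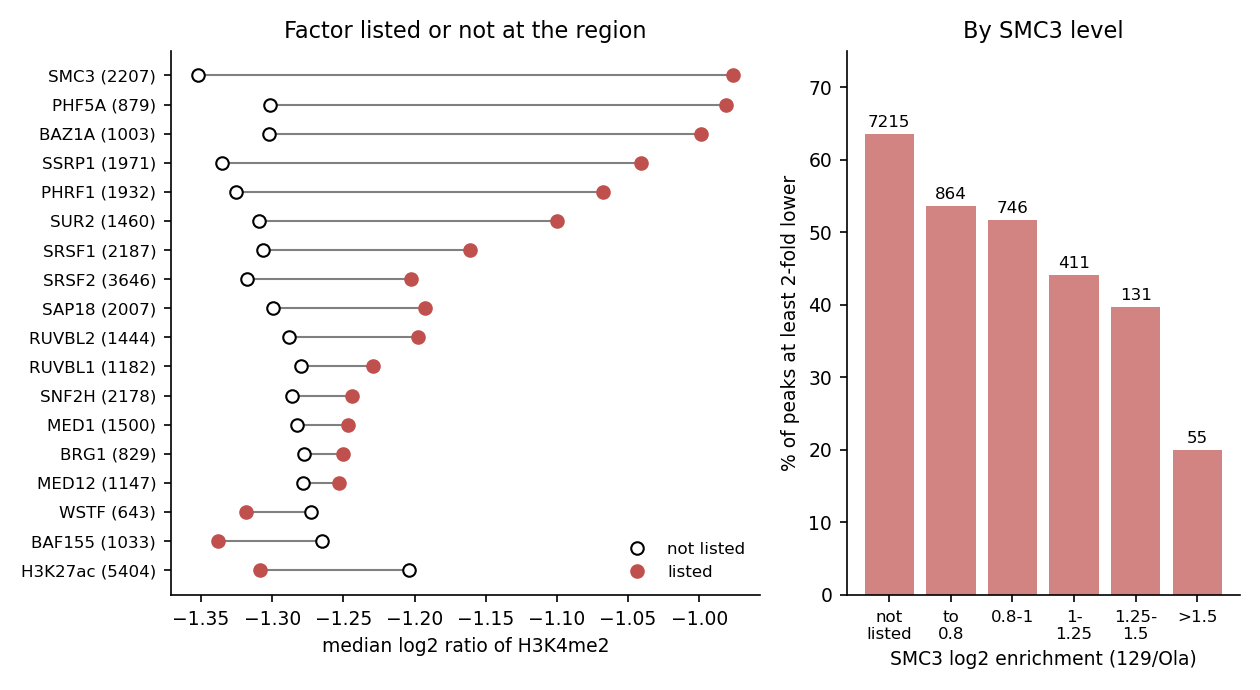
Left, median H3K4me2 log2 ratio (dead line over wild type) at distal peaks on 129/Ola H3K4me1 regions without an R1 H3K4me3 peak, where each factor or H3K27ac was listed (filled, number of peaks beside the name) or not listed (open); right, percentage of these peaks at least 2-fold lower by SMC3 log2 enrichment, with the number of peaks above each bar. Over all these peaks SMC3 has the widest gap, -0.98 against -1.35, though not within the peaks with or without listed H3K27ac, and the share of lower peaks is 63.5% without SMC3 and 11 of 55 peaks at its strongest; the horizontal axis on the left does not start at 0.

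Neighbouring distal peaks went together over short distances. For 3382 pairs of adjacent distal peaks less than 1 kb apart, rho of their log2 ratios was 0.56, and when the first was at least 2-fold lower the next was too in 67.4% of cases, against 26.0% otherwise. At 10 to 50 kb rho was 0.17 (7603 pairs), and beyond 100 kb 0.052 (1988 pairs). Where both peaks of a pair had H3K4me1 alone, rho was 0.66 below 1 kb (960 pairs) and 0.071 at 50 to 100 kb (355 pairs). Beyond 100 kb it was 0.20 (242 pairs), so the fall with distance was not steady in that class. Adjacent peaks can share one regulatory element, so single peaks are not independent sites. Chromosome X had medians of -0.57 (515 distal peaks) and 0.34 (639 proximal peaks), both beyond the range of the autosomes in their direction.

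Single peaks show the size of these differences (coordinates in mm9 as deposited). They were taken from peaks whose higher value was at least 9.18, the upper quartile of that value, and the 3 lowest ratios among them were modest. The lowest distal peak, on chromosome 16 from 20359577 to 20363172, had a fold enrichment of 9.35 in the wild-type line and 3.48 in the dead line. It overlapped both other marks, and its H3K4me3 was 6.61 and 3.52. The lowest proximal peak, on chromosome 10 from 79481303 to 79484075, had 10.6 and 4.66 beside an H3K4me3 of 8.66 and 3.70.

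The highest ratios under the same limit were larger and came with higher values of all 3 marks. At a distal peak on chromosome 16, 44451442 to 44452463, H3K4me2 was 2.56 in wild-type and 11.1 in the dead line, H3K4me1 1.63 and 5.42, and H3K4me3 2.40 and 6.17. A distal peak on chromosome 10, 118875669 to 118876920, had an H3K4me2 of 2.27 and 9.55 and an H3K4me3 of 2.03 and 8.19. At a proximal peak on chromosome X, 98988519 to 98990925, H3K4me2 was 2.74 and 11.0 and H3K4me3 3.88 and 12.2. All 6 peaks with the highest ratios, distal and proximal, overlapped an H3K4me1 and an H3K4me3 peak and were higher in both. Their wild-type values were 2.89 or below, so they passed the limit only through the dead line, where they are high. Distal peaks with H3K4me1 alone seldom reach that limit, so the overlap with H3K4me3 is in part set by the choice and tests nothing.

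Of the 3 widest distal and the 3 widest proximal domains, 5 had a higher value in the dead line, some of them barely. A proximal domain on chromosome 13 had 7.93 in wild-type and 8.04 in the dead line, and a distal one on chromosome 3 had 6.96 and 7.35. Higher values did not extend to all wide domains: those of 10 kb or more had a median log2 ratio of -0.058 at 297 distal and -0.10 at 35 proximal peaks. The widest of all, a distal domain of 61502 bp on chromosome 11 from 96155565 to 96217067, had 4.54 in wild-type and 9.71 in the dead line. It overlapped 3 H3K4me3 peaks, and the one with the longest overlap had 4.71 and 9.94. The next, 30683 bp on chromosome 6 from 52105274 to 52135957, had 7.50 and 10.8. Among the proximal domains, one on chromosome 1 from 122491336 to 122507432 had 6.74 and 12.9, and the lower one, on chromosome 10 from 75486449 to 75501834, had 7.50 and 6.40. The peaks with the highest wild-type values stayed within 2-fold. A proximal peak on chromosome 9, 110146774 to 110149362, had 22.1 and 16.8, and a distal peak on chromosome 7, 53087645 to 53090294, had 18.5 and 21.1.

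Distal peaks with H3K4me1 alone seldom reached the limit above, so 2 more sets were chosen after their values had been seen. Among them the second highest wild-type value, on chromosome 15 from 30001012 to 30002650, was 7.37 and stood against 0.386 in the dead line. H3K4me1 there was 4.15 and 0.699, and the site was a poised enhancer with 4 listed factors in 129/Ola cells. The highest wild-type value in the class, 8.07 on chromosome 4 from 140940779 to 140941468, stood against 2.53. The other set held the 3 lowest ratios above a wild-type value of 5, so its dead-line values are low by choice. A peak of this set on chromosome 7, 65923289 to 65924909, had an H3K4me2 of 5.19 and 0.188 and an H3K4me1 of 4.72 and 0.841. The class had a wild-type median of 3.50, so these peaks were among its strongest. Of all its peaks with a wild-type value of 5 to 6, 25.1% of 439 were below a fold enrichment of 1 in the dead line. At 6 to 8 it was 30.0% of 40.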

How the data were processed

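ChIP-seq peaks of R1 cells were read from 3 tables. The authors deposited for each peak its position, a distal or proximal group and 1 fold enrichment (a ratio, marked FE per the file headers) per line. No source used here says what it is relative to or how libraries were combined. The submitters' processing notes name mm9 and, for R1 libraries, deepTools 2.5.1 and 2.5.3, MACS2 2.1.0.20150731, Picard 2.11.0 and BWA 0.7.13-r1126, and for 129/Ola libraries Bowtie, Picard and MACS2. The authors' 129/Ola region tables hold deposited log2 enrichments, listed from 0.585 upwards. Of their 31 names, 17 factors, H3K27ac and the H3K4 marks were used, and 11 names were not used.

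Positions run in text order of the chromosomes and scores in number order, so each chromosome's score block was put back on its peaks. Spearman's rho of width with wild-type fold enrichment was 0.661 on chromosome 1, where both orders coincide. On chromosomes 2 to 19 it was 0.646 to 0.707 as restored and -0.056 to 0.052 as deposited.

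Log2 ratios were computed without a pseudocount, and a dead-line value of 0 (2 peaks) was set to the smallest positive value over 2. Called means at least 2-fold, a rule of size. Peaks were matched at 1 bp or more with bedtools 2.31.1, and where several partners overlapped, the values are those of the one with the longest overlap. Summaries used Python 3.11.15, pandas 2.3.3 and scipy 1.17.1, and the code was tested on simulated data. The classes, strata and lists were chosen with earlier results of these data known. Named peaks are, per group, the 3 lowest and 3 highest log2 ratios among peaks whose higher value is in the upper quartile. The 3 widest and the 3 with the highest wild-type value were added. So was a peak of middle width and near-median log2 ratio from each distal class, and not all are printed. Genes are not named, since no mm9 annotation was used here. Alternatives changed the layout, pseudocount, centring, normalization, filter, threshold and overlap.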

Additional observations from a re-analysis of the deposited data

How the results depend on the processing

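No paired analysis was possible because the table holds 1 value per line and its columns carry no replicate number. For the same reason no library could be left out, and depth is unknown. The filters on level and the quantile normalization with a mean of logs as reference were chosen after seeing the data. The filters use values that enter the ratio. Of 55 planned values 14 stayed within their counting interval or within 1.5 times their count. Of these, 2 are the counts of lower and higher peaks in the deposited layout, which reordering values cannot change. Counts on chromosomes 1 and X were compared with those of the whole table, so their smaller number of peaks pushes them outside. The intervals treat peaks as independent sites, which they are not. Of 18 contrasts between classes, 18 kept their sign with a pseudocount of 1, 17 on chromosomes 1 and X, 15 under quantile normalization and 16 with the mean of logs. The causes were not tested.

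The distal median, -0.46 as reported, was -0.157 in the deposited layout, -0.508 on chromosomes 1 and X, -0.366 with a pseudocount of 1, -0.336 after median centring, -0.0737 after quantile normalization (-0.0814 with the mean of logs) and -0.112 without the lowest 25% of peaks. Above the table's median wild-type value it was -0.209, and above the median of the mean of both lines 0.0312. The proximal median, 0.18, had under these settings in the same order -0.0733, 0.278, 0.165, 0.309, 0.0313 (0.0314), 0.206, 0.209 and 0.225. In the deposited layout most values sit on other peaks, which draws both medians together.

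The 12302 lower peaks became 1013 on chromosomes 1 and X, 2898 under quantile normalization (4353 with the mean of logs), 3083 without the lowest 25%, 2419 above the median wild-type value and 463 above the median mean. The 1023 higher peaks became 120, 3331 (4238), 800, 68 and 366 there, 431 with a pseudocount of 1 and 4236 at 1.5-fold. Chromosomes 1 and X and the filters hold fewer peaks than the whole table, so their counts are not comparable in size. On chromosome 1, 34.0% of distal and 4.88% of proximal peaks were lower. On chromosome X it was 39.8% and 3.91%, beside 31.8% and 5.91% over the table. Lower peaks made up 92.3% of the calls as reported, 89.4% on chromosomes 1 and X and 46.5% under quantile normalization (50.7%). They made up 79.4% without the lowest 25%, 80.7% at 1.5-fold and 55.8% above the median mean.

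The median at distal peaks with H3K4me1 and without H3K4me3, -1.11, was -0.181 in the deposited layout, -1.24 on chromosomes 1 and X, -0.779 with a pseudocount, -0.979 after centring, -0.123 under quantile normalization (-0.156) and -0.260 without the lowest 25%. It was -1.02 at an overlap of 50%, -1.58 above the median wild-type value and 0.265 above the median mean. The median at distal peaks with H3K4me3, -0.12, was -0.139 in the deposited layout, -0.103 with a pseudocount, 0.00486 after centring, -0.0869 under quantile normalization (-0.0881), -0.0966 without the lowest 25%, -0.0532 at an overlap of 50%, -0.162 above the median wild-type value and 0.0239 above the median mean.

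The narrowest minus the widest distal quintile, 4.12 percentage points, was 0.578 in the deposited layout, 0.840 on chromosomes 1 and X, -5.17 under quantile normalization (-4.04), -15.2 without the lowest 25%, -0.204 at 1.5-fold, -5.58 above the median wild-type value and -5.90 above the median mean. The active minus poised share, 14.8 points, was 0.791 in the deposited layout, 10.4 with a pseudocount, 4.52 under quantile normalization (6.18), 17.8 at 1.5-fold, 18.0 above the median wild-type value and 6.80 above the median mean.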
